A study of Homo sapiens with 12 samples.

Results

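Heat shock proteins and their cochaperones were followed as messenger RNA in the human lung cancer lines H1299 and H1703, each cultured for 24 h with the histone deacetylase inhibitor SAHA (vorinostat, which blocks zinc-dependent deacetylases) or with DMSO alone. The members were every protein-coding row of the deposited expression tables whose symbol starts with HSP and one of A, B, D, E, H or a digit, with DNAJA, DNAJB or DNAJC and a digit, or with HSF or BAG and a digit. The rule used names only and found 89 genes among 58302 rows, 19817 of them protein-coding. Both tables listed the same genes. 4 groups of 3 libraries were compared: H1299 (NCI-H1299) with SAHA, H1299 with DMSO, H1703 (NCI-H1703) with SAHA and H1703 with DMSO. Both are established non-small-cell lung cancer lines, and the labels give both as epithelial lung cells. DMSO at 0.1% was the vehicle. The treatment protocol names SAHA at 2.5, 10 and 40 µM without saying which of these doses the sequenced cells received, so no value below belongs to a stated dose.

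Heat shock proteins hold unfolded proteins, refold them or pass them on for degradation. HSP70 proteins bind and release client chains in an ATPase cycle that DNAJ proteins (J proteins, or HSP40s) start and that HSP110, BAG and HSPBP1 proteins reset by exchanging the nucleotide. HSP90 completes the folding of kinases and steroid receptors, the HSPD1 and HSPE1 chaperonin folds proteins in the mitochondrial matrix, and small heat shock proteins hold clients without ATP. HSF1 is the transcription factor that switches on the cytosolic members under heat and other protein stress, while the members of the endoplasmic reticulum (ER) are under the separate unfolded protein response. Cancer cells commonly hold many of these genes at high levels, and HSP90 itself is a substrate of the deacetylase HDAC6, one of the enzymes that SAHA inhibits.

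Total counts per library were 14416126 to 19408852. Mitochondrially encoded genes took 4.0% to 4.23% of the counts in H1299 with SAHA and 1.96% to 2.22% with DMSO, and 8.77% to 10.9% in H1703 with SAHA and 5.44% to 6.27% with DMSO. Their part in the results was not tested. KRT8 and KRT18, keratins of simple epithelia, were abundant in both lines. CDH1, the epithelial cadherin gene, had 92.35 CPM in H1703 with DMSO and 0 counts in H1299 with DMSO. EPCAM, KRT19 and KRT7 had 2.81, 15.9 and 2183 CPM in H1703 with DMSO. In H1299 with DMSO they had 0.236, 0.0202 and 6.11 CPM. With SAHA, CDH1, EPCAM, KRT19 and KRT7 had 32.1, 2.16, 309 and 613 CPM in H1703. In H1299 with SAHA they had 0.162, 0.166, 0.86 and 5.86 CPM. The 6 epithelial markers, KRT8 and KRT18 included, summed to 1360 to 1580 CPM in H1299 with SAHA and 590 to 613 CPM with DMSO. The H1703 sums were 2950 to 3410 CPM with SAHA and 3980 to 4440 CPM with DMSO. Mesenchymal markers (VIM, CDH2, ZEB1 and FN1) summed to 1920 to 2310 CPM in H1299 with SAHA and 2960 to 3640 CPM with DMSO. In H1703 they summed to 2350 to 2530 CPM with SAHA and 1580 to 1660 CPM with DMSO. The genes within these sums did not move together. In H1299 VIM and ZEB1 had lower means with SAHA (1892 against 3257, and 13.5 against 28.5 CPM). CDH2 and FN1 had higher ones (115 against 57.2, and 163 against 55.3 CPM). In H1703 the means of FN1 (1302 against 472 CPM) and CDH2 (172 against 124 CPM) were higher with SAHA. Those of VIM (961 against 1001 CPM) and ZEB1 (11.4 against 16.9 CPM) were lower. Myeloid markers (CD14, CD68 and LYZ) summed to 74.9 to 83.5 CPM in H1703 with SAHA and 27.3 to 47.2 CPM with DMSO, and to 16.5 to 19.4 CPM in H1299 with SAHA and 20.7 to 41.9 CPM with DMSO. Endothelial markers (PECAM1, VWF and CDH5) summed to 4.6 to 5.97 CPM in H1299 with SAHA and 0.679 to 0.768 CPM with DMSO, and to 3.26 to 4.27 CPM in H1703 with SAHA and 0.275 to 0.511 CPM with DMSO. Fibroblast markers (COL1A1, COL1A2 and DCN), nearly all COL1A1, summed to 33.1 to 46.0 CPM in H1299 with SAHA and 1.24 to 2.18 CPM with DMSO, and to 59.9 to 69.8 CPM in H1703 with SAHA and 58.0 to 67.3 CPM with DMSO. The part of these markers in the results was not tested. Levels of one gene across libraries are in CPM (counts relative to library size, with one scaling over the 12 libraries). Each change is given on the log2 scale, as fitted in edgeR by quasi-likelihood, with an SE. This SE is the size of the change over the square root of its F statistic. It is approximate and can be too small for large changes of genes with few counts in a group. A gene was called at a Benjamini-Hochberg adjusted p below 0.05 over all genes tested. The labels do not state that the replicates come from separate cultures; the p-values rest on the spread of these libraries, and that spread may be technical. In such bulk samples fewer cells and less RNA per cell cannot be told apart.

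The promoters of several members carry the elements through which these responses are known to act, and 6 are printed because the genes behind them fall on different sides of the comparisons below. Each stretch is the 250 bases before the RefSeq start site (build GRCh38.p14), read 5′ to 3′ on the gene's strand, with the element in capitals. HSPA1A (chr6:31815293-31815542, plus strand) holds the inverted repeat GAANNTTC, the core of a heat shock element. HSP90AA1 (chr14:102087045-102087294, minus strand), HSPA8 (chr11:123062137-123062386, minus strand) and HSPD1 (chr2:197499841-197500090, minus strand) hold a longer heat shock element, GAANNTTC followed by NN and GAA, on one strand or the other. HSPA5 (chr9:125241344-125241593, minus strand) and HSP90B1 (chr12:103930160-103930409, plus strand) hold the ER stress element, CCAAT and CCACG with any 9 bases between.
HSPA1A: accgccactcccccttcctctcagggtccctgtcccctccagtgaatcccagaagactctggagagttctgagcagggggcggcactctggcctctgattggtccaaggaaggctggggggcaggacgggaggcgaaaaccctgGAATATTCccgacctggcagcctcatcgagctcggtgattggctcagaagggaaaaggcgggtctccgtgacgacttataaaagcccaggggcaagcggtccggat
HSP90AA1: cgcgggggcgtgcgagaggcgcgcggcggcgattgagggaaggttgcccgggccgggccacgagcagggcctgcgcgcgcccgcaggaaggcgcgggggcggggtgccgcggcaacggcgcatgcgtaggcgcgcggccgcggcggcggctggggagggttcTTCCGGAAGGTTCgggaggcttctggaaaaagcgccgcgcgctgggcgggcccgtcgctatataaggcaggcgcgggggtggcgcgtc
HSPA8: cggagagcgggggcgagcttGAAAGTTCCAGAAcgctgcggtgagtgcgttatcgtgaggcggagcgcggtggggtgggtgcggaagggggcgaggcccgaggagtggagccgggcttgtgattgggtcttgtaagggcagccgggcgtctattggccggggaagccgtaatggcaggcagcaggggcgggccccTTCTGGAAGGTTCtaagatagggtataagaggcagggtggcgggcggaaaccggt
HSPD1: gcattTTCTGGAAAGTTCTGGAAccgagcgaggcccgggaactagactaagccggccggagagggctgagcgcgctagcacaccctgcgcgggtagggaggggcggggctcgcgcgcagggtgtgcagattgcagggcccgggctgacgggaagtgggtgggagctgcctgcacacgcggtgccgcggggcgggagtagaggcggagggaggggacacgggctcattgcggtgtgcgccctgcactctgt
HSPA5: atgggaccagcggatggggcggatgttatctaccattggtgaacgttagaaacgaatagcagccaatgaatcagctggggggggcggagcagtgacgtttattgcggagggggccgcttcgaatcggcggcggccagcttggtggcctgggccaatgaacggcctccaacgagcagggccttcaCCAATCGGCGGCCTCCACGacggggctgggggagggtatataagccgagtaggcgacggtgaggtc
HSP90B1: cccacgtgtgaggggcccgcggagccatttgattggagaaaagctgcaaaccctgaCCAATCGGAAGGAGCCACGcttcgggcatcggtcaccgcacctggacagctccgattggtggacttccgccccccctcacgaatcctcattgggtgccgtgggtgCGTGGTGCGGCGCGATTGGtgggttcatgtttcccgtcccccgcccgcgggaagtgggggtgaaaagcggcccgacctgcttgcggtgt

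RefSeq promoters of 300 bases (250 before and 50 after the start) were found for 76 of the 88 member symbols. Searched on both strands, the longer heat shock element was present for 7 of the 76 (DNAJA1, DNAJB6, HSP90AA1, HSP90AB1, HSPA6, HSPA8 and HSPD1), against 0.608% of all symbols with a promoter. The shorter GAANNTTC, which lies within it, was present for 18 of the 76, against 8.21% of all symbols. The ER stress element was present for HSPA5 and HSP90B1, against 0.0916% of all symbols. A match is a description of the letters and not of a bound site.

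SAHA changed the transcripts of most members in each line, at about the rate of all genes. In H1299, 21 of 78 tested members rose and 33 fell, a called share of 69.2% beside 63.8% of all genes tested (33.3% higher and 30.4% lower). In H1703, 22 of 77 rose and 31 fell, 68.8% beside 67.4% of all genes (34.7% higher and 32.6% lower). The median member moved by -0.25 in H1299 and -0.09 in H1703 on the log2 scale, beside 0.02 for all genes in each line. Apart from DNAJC4 in H1299, every called member had its 3 SAHA libraries all above or all below its 3 DMSO libraries. The same count was not made over all called genes, so it is not shown to be particular to the members. Of the 76 members tested in both lines, 13 rose in both and 23 fell in both, beside 23.0% and 21.9% of all genes tested in both. A further 5 were called in opposite directions, beside 4.99% of all genes.

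**Figure D1:**
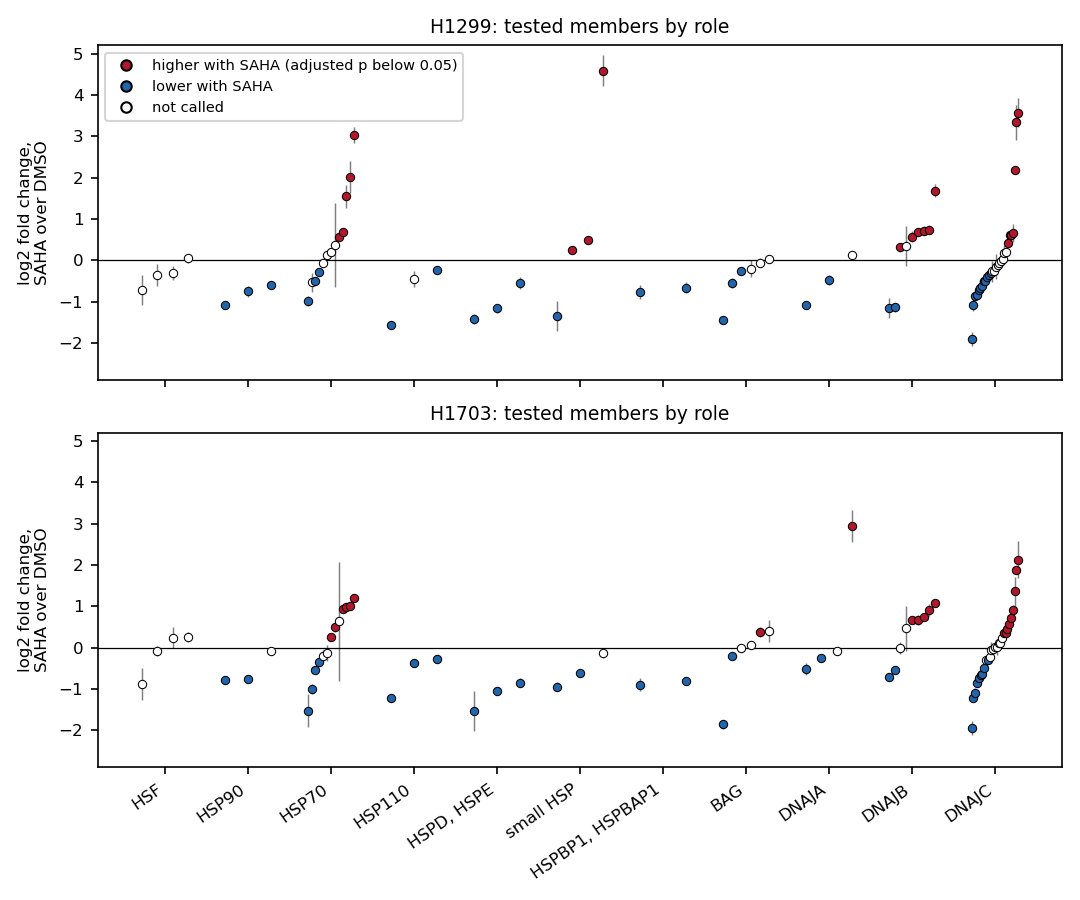
Log2 fold change of each tested member with SAHA over DMSO (vertical axis, bars are SE) by role, in H1299 (upper panel) and H1703 (lower panel), 3 libraries per group. Filled points passed an adjusted p of 0.05; no called HSP90, HSP110, chaperonin or HSPBP1 and HSPBAP1 point lies above 0 in either line, while most called DNAJB points do.

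No HSF gene was called in either line as fitted without a replicate block. HSF1 had 90.3, 78.2 and 115 CPM in H1299 with SAHA, against 96.7, 105 and 135 CPM with DMSO, and 63.5, 77.4 and 53.2 CPM in H1703 with SAHA, against 67.8, 69.7 and 71.2 CPM with DMSO. The ranges overlap in each line (-0.30 ± 0.17 with edgeR adjusted p = 0.159 in H1299, -0.09 ± 0.12 with adjusted p = 0.561 in H1703). HSF2, a related factor, was at 0.04 ± 0.12 and 0.25 ± 0.12 in H1299 and H1703. With a replicate block HSF1 was called lower in H1299 (-0.30, adjusted p = 0.0272), and likewise without the third SAHA library (-0.48, adjusted p = 0.0346). One of the 4 tested HSF symbols, HSF2BP, encodes a meiotic HSF2-binding protein and matches by name only.

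Both cytosolic HSP90 genes fell in both lines. HSP90AA1, the stress-inducible isoform, had 3399, 2305 and 2919 CPM in H1299 with SAHA, against 4378, 4836 and 4752 CPM with DMSO (log2 fold change -0.75 ± 0.14, edgeR adjusted p = 0.001). In H1703 it had 1149, 1182 and 1187 CPM with SAHA, against 1989.8, 2177 and 1965 CPM with DMSO (log2 fold change -0.78 ± 0.07, edgeR adjusted p = 7.00e-06). All SAHA libraries lie below all DMSO libraries of their line, and the 3 H1299 SAHA libraries differ more among themselves than those of any other group. HSP90AB1, the constitutive isoform, had 1892, 1967 and 1931 CPM in H1299 with SAHA, against 2726, 2917 and 2748 CPM with DMSO (log2 fold change -0.59 ± 0.08, edgeR adjusted p = 0.000164). H1703 gave 1253, 1221 and 1296 CPM with SAHA, against 2104, 2206 and 2179 CPM with DMSO (log2 fold change -0.77 ± 0.06, edgeR adjusted p = 5.30e-06). The 3 HSP90 genes together took 0.563 ± 0.065% of all counts in H1299 with SAHA and 0.881 ± 0.033% with DMSO, and 0.285 ± 0.004% in H1703 with SAHA and 0.476 ± 0.014% with DMSO (SD, n = 3 each).

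Among the cytosolic HSP70 genes, HSPA1A and HSPA1B rose and HSPA8 fell in each line, while HSPA6 rose in H1299 and fell in H1703. HSPA1A, the main stress-inducible HSP70, had 839, 950.0 and 840.3 CPM in H1299 with SAHA, against 560.4, 586 and 560.3 CPM with DMSO (log2 fold change 0.57 ± 0.08, edgeR adjusted p = 0.000294). In H1703 the values were 1536, 1474 and 1359 CPM with SAHA, against 739, 713 and 769 CPM with DMSO (log2 fold change 0.99 ± 0.07, edgeR adjusted p = 2.01e-06). Every SAHA library is above every DMSO library, in both lines. HSPA1B encodes the same protein from a near-identical neighbouring gene and rose by 0.70 ± 0.09 and 1.00 ± 0.09. The ratio of HSPA1A to HSPA1B counts stayed between 6.49 and 7.88 in the 12 libraries, and the sources used here do not say how reads were split between these copies, so their values are not independent.

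HSPA8, the constitutive HSC70 of unstressed cells, had 1494, 1508 and 1865 CPM in H1299 with SAHA, against 2126, 2351 and 2172 CPM with DMSO (log2 fold change -0.51 ± 0.11, edgeR adjusted p = 0.00236). H1703 had 1205, 1142 and 1179.7 CPM with SAHA, against 1789, 1627 and 1771 CPM with DMSO (log2 fold change -0.54 ± 0.07, edgeR adjusted p = 7.73e-05). The groups do not overlap. HSPA8 and the inducible HSPA1A moved apart within each line. The promoters of both hold the GAANNTTC repeat, in HSPA8 within the longer element and in HSPA1A without it. The part of these elements in the changes was not tested.

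HSPA6, a strictly inducible HSP70 of human cells, moved in opposite directions in the lines at low counts. It had 16, 22 and 20 counts in H1299 with SAHA, against 6, 4 and 4 counts with DMSO (log2 fold change 2.01 ± 0.38, edgeR adjusted p = 0.00136). In H1703 it had 7, 21 and 8 counts with SAHA, against 45, 34 and 26 counts with DMSO (log2 fold change -1.53 ± 0.40, edgeR adjusted p = 0.00682). Groups do not overlap in either line, but the H1703 SAHA libraries span a wide range. HSPA6 has a near-identical pseudogene copy, so its counts are uncertain.

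HSPA2, best known from the testis, varied widely between libraries of one group. Its counts were 37, 464 and 880 in H1299 with SAHA and 301, 290 and 464 with DMSO, and 359, 5457 and 5046 in H1703 with SAHA and 3324, 199 and 3141 with DMSO. The first SAHA library of each line and the second DMSO library of H1703 are far below their group, and no comparison of HSPA2 was called as fitted.

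The atypical HSP70 gene HSPA12A, on chromosome 10, rose in both lines, by very different amounts. In H1299 it had 16.8, 15.8 and 12.9 CPM with SAHA, against 2.18, 1.83 and 1.36 CPM with DMSO (log2 fold change 3.03 ± 0.20, edgeR adjusted p = 2.49e-06). In H1703 it had 86.2, 79.9 and 89.7 CPM with SAHA, against 69.8, 72.2 and 74.9 CPM with DMSO (log2 fold change 0.26 ± 0.08, edgeR adjusted p = 0.0173). The H1703 call is lost under 5 alternatives. Among them are leaving out any one of 3 libraries (highest adjusted p = 0.0832, without the first DMSO library) and library totals as the only scaling (0.15, adjusted p = 0.122). Its paralogue HSPA12B, known from endothelium, rose by 1.55 ± 0.28 in H1299 and was at -0.20 ± 0.14 in H1703. HSPA14, a ribosome-associated HSP70, is listed under a pair of overlapping Ensembl genes: ENSG00000187522 fell by 0.99 ± 0.12 in H1299 and 1.00 ± 0.12 in H1703, and ENSG00000284024 was at 0.13 ± 0.12 in H1299 and rose by 0.49 ± 0.10 in H1703.

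Of 3 HSP110 genes 2 fell in H1299 and 3 in H1703, beside 30.4% and 32.6% of all genes tested. The chaperonin genes HSPD1 and HSPE1 fell in both lines. HSPH1, an HSP110 that exchanges nucleotide on HSP70, had 107, 88.3 and 97.4 CPM in H1299 with SAHA, against 272, 282 and 282 CPM with DMSO (log2 fold change -1.57 ± 0.09, edgeR adjusted p = 9.39e-07). It had 101, 93.0 and 102 CPM in H1703 with SAHA, against 231, 233 and 238 CPM with DMSO (log2 fold change -1.23 ± 0.07, edgeR adjusted p = 5.18e-07). With SAHA the 6 libraries of the lines overlap in level, and they lie below all 6 DMSO libraries. The other HSP110 genes moved less. HSPA4 was at -0.24 ± 0.08 and -0.38 ± 0.08 in H1299 and H1703, and HSPA4L was at -0.45 ± 0.20 (not called) and -0.28 ± 0.10. The HSPA4 call in H1299 is lost under 6 alternatives, among them a replicate block (adjusted p = 0.0538), library totals alone (0.111) and leaving out any one of 4 libraries. The HSPA4L call in H1703 is lost under 5 alternatives (highest adjusted p = 0.128). Among them is leaving out any one of 4 libraries (up to 0.0834, without the first DMSO library).

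HSPD1, the mitochondrial HSP60, had 382, 324 and 429 CPM in H1299 with SAHA, against 996, 893 and 1039 CPM with DMSO (log2 fold change -1.42 ± 0.11, edgeR adjusted p = 7.45e-06). H1703 had 285, 270.3 and 272 CPM with SAHA, against 547, 627 and 557 CPM with DMSO (log2 fold change -1.05 ± 0.08, edgeR adjusted p = 2.22e-06). HSPE1, its cochaperonin, which is transcribed head to head with it from a shared promoter region, fell by 1.17 ± 0.11 in H1299 and 0.86 ± 0.11 in H1703. The read-through HSPE1-MOB4, which overlaps HSPE1 and MOB4 on the same strand, fell by 0.56 ± 0.15 in H1299 and 1.54 ± 0.48 in H1703. Its H1299 call is lost in a fit over 12 libraries (adjusted p = 0.225) and its H1703 call under 5 alternatives (highest adjusted p = 0.10). HSPA9, the mitochondrial HSP70, fell by 0.29 ± 0.07 in H1299 and 0.36 ± 0.06 in H1703. Its J protein partner DNAJA3 fell by 0.47 ± 0.12 in H1299 and 0.52 ± 0.15 in H1703, the H1703 call being lost without the second SAHA library (adjusted p = 0.0602).

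The plot of CPM by library shows 12 of these genes side by side.

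**Figure D2:**
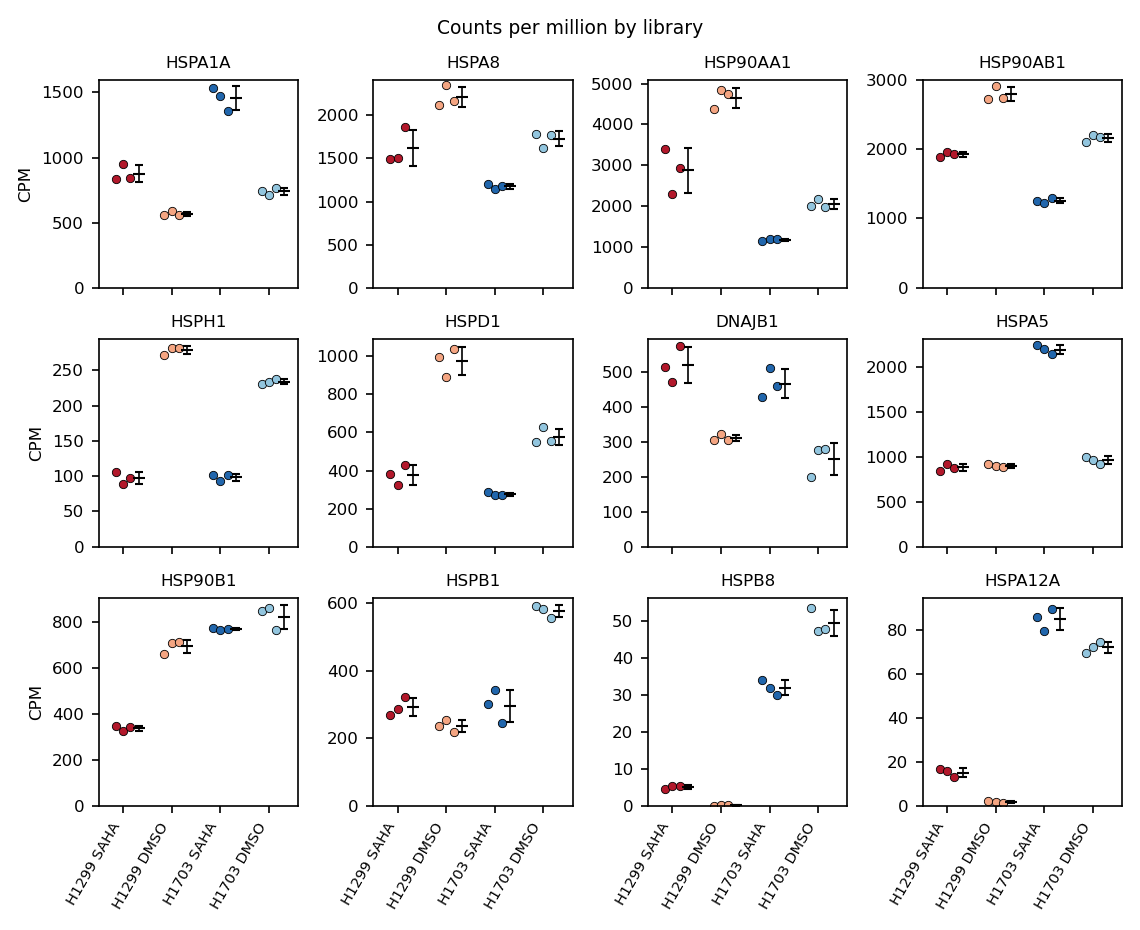
CPM of 12 members in each library (points) with the mean and SD of 3 libraries (bars), SAHA left of DMSO within H1299 and H1703. HSPA1A and DNAJB1 are higher with SAHA in both lines, HSPA8, HSP90AA1, HSP90AB1, HSPH1 and HSPD1 are lower in both, and HSPA5, HSP90B1, HSPB1, HSPB8 and HSPA12A differ between the lines.

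HSPA5 (BiP), the HSP70 of the ER, had 2238, 2193 and 2142 CPM in H1703 with SAHA, against 1002, 968 and 919 CPM with DMSO (log2 fold change 1.20 ± 0.07, edgeR adjusted p = 3.36e-07). In H1299 it had 847, 924 and 879 CPM with SAHA, against 919, 893 and 882 CPM with DMSO (log2 fold change -0.08 ± 0.08, edgeR adjusted p = 0.393). The groups are far apart in H1703 and overlap in H1299. The difference between the lines in the SAHA effect, H1703 minus H1299, was 1.21 ± 0.10 (edgeR interaction, adjusted p = 3.67e-07).

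HSP90B1 (GRP94), the HSP90 of the ER, fell in H1299 and was not called in H1703. It had 347, 326 and 341 CPM in H1299 with SAHA, against 662, 709 and 713 CPM with DMSO (log2 fold change -1.09 ± 0.08, edgeR adjusted p = 3.38e-06). H1703 had 775, 764 and 769.9 CPM with SAHA, against 846, 862 and 764 CPM with DMSO (log2 fold change -0.08 ± 0.07, edgeR adjusted p = 0.333). HSP90B1 and HSPA5 were each called in a single line, with an effect higher in H1703 for both (0.94 ± 0.10 for HSP90B1, adjusted p = 6.18e-06). The promoters of both hold the ER stress element printed above, and its part in these changes was not tested.

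Of 10 members assigned to the ER, 3 rose and 4 fell in H1299, beside 33.3% and 30.4% of all genes. In H1703 7 rose and 2 fell, beside 34.7% and 32.6% of all genes. The effect was higher in H1703 for 5 of the 10 and lower for 1, beside 13.7% and 21.2% of all genes tested. This list was drawn up with the values known, and the lower one, DNAJC1, loses its call under 13 alternatives (highest adjusted p = 0.0941). The counts depend on the assignment: DNAJC14, DNAJC16 and DNAJC18 were kept outside it, and DNAJC18 had a lower effect in H1703 (-0.51). DNAJC3 (p58IPK), an ER J protein and kinase inhibitor, rose by 0.71 ± 0.10 in H1703 and was at -0.08 ± 0.12 in H1299. DNAJC10 (ERdj5), a disulfide reductase, fell by 0.50 ± 0.11 in H1299 and rose by 0.35 ± 0.10 in H1703, the H1703 call being lost without the third DMSO library (0.24, adjusted p = 0.0541). HSPA13, a microsomal HSP70, rose by 0.92 ± 0.09 in H1703 and was at 0.19 ± 0.10 in H1299. DNAJB9 (ERdj4) and DNAJB11 (ERdj3) rose in both lines, by 0.74 ± 0.12 and 0.71 ± 0.11 in H1299 and by 0.66 ± 0.08 and 0.75 ± 0.09 in H1703. DNAJC1 (ERdj1), a translocon J protein, rose in both lines. It had 121, 129 and 107 CPM in H1299 with SAHA, against 24.96, 24.9 and 25.6 CPM with DMSO, and 203, 221 and 187 CPM in H1703 with SAHA, against 58.3, 54.1 and 54.7 CPM with DMSO (2.19 ± 0.10 and 1.89 ± 0.09). DNAJB12 and DNAJB14, ER membrane J proteins that face the cytosol, fell by 1.14 ± 0.11 and 1.15 ± 0.24 in H1299 and by 0.70 ± 0.08 and 0.54 ± 0.10 in H1703.

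By symbol, 3 of 4 tested small heat shock proteins (HSPB1, HSPB8 and HSPB11) rose in H1299 and 1 fell. Of all genes tested there, 33.3% were higher and 30.4% lower. In H1703 2 of 3 tested fell (HSPB1 and HSPB8), beside 32.6% of all genes. With so few members these counts are not read as a result of the class. The HSPB1 rise is lost under 5 alternatives, and HSPB11 is an intraflagellar transport protein. HSPB8 (HSP22, ENSG00000152137, GRCh38 chr12:119178642-119221131), the partner of BAG3 in selective autophagy, had 4.6, 5.4 and 5.21 CPM in H1299 with SAHA, against 0.0604, 0.177 and 0.34 CPM with DMSO (log2 fold change 4.59 ± 0.37, edgeR adjusted p = 7.58e-06). The H1299 counts behind these values were 77, 85 and 89 with SAHA and 1, 3 and 6 with DMSO. H1703 had 33.8, 31.9 and 29.8 CPM with SAHA, against 53.4, 47.1 and 47.7 CPM with DMSO (log2 fold change -0.61 ± 0.10, edgeR adjusted p = 0.000298). Even after its rise in H1299 the gene stayed far below either H1703 group. A processed pseudogene overlaps HSPB8 on the same strand with a mean of 48.67 counts per library.

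HSPB1 (HSP27) was among the most abundant members. It had 301, 341 and 246 CPM in H1703 with SAHA, against 591, 584 and 556 CPM with DMSO (log2 fold change -0.95 ± 0.11, edgeR adjusted p = 4.49e-05), and 268, 286 and 322 CPM in H1299 with SAHA, against 237, 253 and 218 CPM with DMSO (log2 fold change 0.25 ± 0.09, edgeR adjusted p = 0.0403). The fall in H1703 brought it to the level of H1299 with SAHA. The small H1299 rise is lost with a replicate block (adjusted p = 0.0696) and when any one of 4 libraries is left out (highest adjusted p = 0.205, without the third DMSO library). HSPB11 rose by 0.48 ± 0.10 in H1299 and was at -0.14 ± 0.11 in H1703.

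J proteins were the largest class, with 45 members. In H1299 13 of 40 tested rose and 16 fell, and in H1703 15 of 40 rose and 13 fell. These counts are near the shares of all genes, 33.3% higher and 30.4% lower in H1299 and 34.7% and 32.6% in H1703. The DNAJB subclass had 6 of 9 tested higher and 2 lower in H1299 and 5 higher and 2 lower in H1703. DNAJB1, the main cytosolic HSP40 and itself a heat shock gene, had 512, 472 and 575 CPM in H1299 with SAHA, against 306, 322 and 305 CPM with DMSO (log2 fold change 0.69 ± 0.09, edgeR adjusted p = 0.000137). H1703 had 428, 510.1 and 459 CPM with SAHA, against 199, 277 and 279 CPM with DMSO (log2 fold change 0.90 ± 0.14, edgeR adjusted p = 0.000471). It rose in both lines together with HSPA1A, the HSP70 it serves. DNAJB2, a J protein enriched in neurons, rose more, by 1.69 ± 0.15 in H1299 and 1.08 ± 0.10 in H1703. DNAJB6, which keeps aggregation-prone proteins soluble, rose by 0.31 ± 0.11 and 0.67 ± 0.12; its H1299 call is lost with a replicate block (adjusted p = 0.0553) and when any one of 4 libraries is left out, with 0.20 and adjusted p = 0.157 without the first DMSO library. DNAJB4 rose by 0.57 ± 0.13 in H1299 and was at -0.01 ± 0.14 in H1703.

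DNAJA1, a farnesylated cytosolic partner of HSPA8, fell in H1299 and was not called in H1703. It had 202, 184 and 205 CPM in H1299 with SAHA, against 382, 410.3 and 415 CPM with DMSO (log2 fold change -1.08 ± 0.08, edgeR adjusted p = 4.63e-06), and 459, 483 and 496 CPM in H1703 with SAHA, against 506, 541 and 503 CPM with DMSO (log2 fold change -0.09 ± 0.07, edgeR adjusted p = 0.276). The groups do not overlap in either line, but they are close in H1703. DNAJA2 was at 0.12 ± 0.07 in H1299 and fell by 0.26 ± 0.07 in H1703. DNAJA4 was untested in H1299 for low counts and rose by 2.94 ± 0.39 in H1703, where it had 20, 26 and 25 counts with SAHA, against 2, 4 and 3 counts with DMSO.

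The DNAJC subclass holds J proteins with specialised sites of action. In H1299 7 of 28 tested rose and 12 fell, beside 33.3% and 30.4% of all genes. In H1703 9 of 27 rose and 9 fell, beside 34.7% and 32.6% of all genes. The called shares, 67.9% and 66.7%, were near those of all genes, 63.8% and 67.4%. DNAJC12, which assists aromatic amino acid hydroxylases, had 2.57, 2.35 and 2.58 CPM in H1299 with SAHA, against 0.121, 0.177 and 0.283 CPM with DMSO (log2 fold change 3.57 ± 0.35, edgeR adjusted p = 2.32e-05). In H1703 it had 35.7, 30.7 and 30.8 CPM with SAHA, against 32.8, 32.6 and 31.9 CPM with DMSO (log2 fold change 0.02 ± 0.10, edgeR adjusted p = 0.898). H1703 thus held the gene at one level in its 6 libraries, well above H1299 with SAHA. DNAJC5B, a cysteine string protein gene, rose by 3.34 ± 0.42 and 2.13 ± 0.44, with few counts under DMSO, and its better known paralogue DNAJC5, a synaptic vesicle chaperone, by 0.41 ± 0.07 and 0.58 ± 0.07. DNAJC6 (auxilin), which uncoats clathrin vesicles, rose by 0.61 ± 0.13 and 0.36 ± 0.11. Its H1703 call is lost under 3 alternatives, among them leaving out the third DMSO library (adjusted p = 0.0725) or the first SAHA library (adjusted p = 0.0505).

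DNAJC9, a histone chaperone, had 52.7, 53.2 and 56.2 CPM in H1299 with SAHA, against 89.6, 97.5 and 93.4 CPM with DMSO (log2 fold change -0.85 ± 0.08, edgeR adjusted p = 1.94e-05). It had 20.3, 21.2 and 15.7 CPM in H1703 with SAHA, against 91.6, 63.2 and 69.0 CPM with DMSO (log2 fold change -1.95 ± 0.17, edgeR adjusted p = 1.23e-05). The groups are apart in each line and the fall is deeper in H1703. DNAJC2, which binds ribosomes and the emerging chain, fell by 1.91 ± 0.16 in H1299 and 1.22 ± 0.09 in H1703. DNAJC11, a mitochondrial membrane protein, fell by 0.30 ± 0.09 in H1299 and 1.09 ± 0.11 in H1703, and DNAJC7, a cytosolic partner of HSP70 and HSP90, by 0.86 ± 0.09 and 0.87 ± 0.09. DNAJC21, a ribosome assembly factor, fell by 0.63 ± 0.12 in H1299 and was at -0.03 ± 0.08 in H1703. DNAJC30, a mitochondrial J protein, rose by 0.61 ± 0.10 in H1299 and fell by 0.31 ± 0.10 in H1703, a call lost without the third H1703 DMSO library (adjusted p = 0.0717). DNAJC9 overlaps MRPS16 on its own strand, and DNAJC2, DNAJC7, DNAJC11 and DNAJC30 overlap expressed genes on the opposite strand; since the labels contradict each other on strand, reads of such pairs may be mixed.

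Among the BAG proteins, which release clients from HSP70 through a shared domain, BAG2 fell in both lines. It had 34.8, 30.4 and 33.3 CPM in H1299 with SAHA, against 87.6, 85.6 and 86.9 CPM with DMSO (log2 fold change -1.46 ± 0.09, edgeR adjusted p = 1.48e-06), and 16.1, 21.4 and 19.1 CPM in H1703 with SAHA, against 68.3, 67.4 and 72.5 CPM with DMSO (log2 fold change -1.86 ± 0.11, edgeR adjusted p = 6.38e-07). BAG2 is known as an inhibitor of the ubiquitin ligase CHIP (STUB1). BAG3, a heat shock gene and partner of HSPB8, had 153, 169 and 152 CPM in H1299 with SAHA, against 154, 155 and 141 CPM with DMSO (log2 fold change 0.02 ± 0.08, edgeR adjusted p = 0.842). In H1703 it had 185, 186 and 165 CPM with SAHA, against 199, 204 and 218 CPM with DMSO (log2 fold change -0.20 ± 0.08, edgeR adjusted p = 0.0484). This fall is lost under 8 alternatives (highest adjusted p = 0.138). Among them are a replicate block (adjusted p = 0.0868), DESeq2 (adjusted p = 0.0772) and leaving out any one of 5 libraries. BAG6, which guards newly made membrane proteins, fell by 0.56 ± 0.12 in H1299 and was at 0.06 ± 0.07 in H1703. BAG5 fell by 0.26 ± 0.08 in H1299 and was at -0.02 ± 0.09 in H1703. Its H1299 call is lost under 2 alternatives (highest adjusted p = 0.0778), among them leaving out the first H1299 DMSO library (0.0541). BAG5 overlaps KLC1 on the opposite strand (means of 1133 and 3666 counts per library), so reads of the pair may be mixed. BAG4 rose by 0.38 ± 0.13 in H1703, where the third SAHA library carries much of it (0.23, adjusted p = 0.081 without it), and was at -0.06 ± 0.11 in H1299. The H1703 call of BAG4 is lost under 5 alternatives (highest adjusted p = 0.089). BAG1 was at -0.20 ± 0.21 and 0.39 ± 0.26 and was not called. HSPBP1, another nucleotide exchange factor of HSP70, fell by 0.67 ± 0.14 in H1299 and 0.81 ± 0.07 in H1703, and HSPBAP1, named for its binding to HSPB1, by 0.77 ± 0.18 and 0.90 ± 0.15.

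Whether SAHA acted alike in the lines was tested as the difference of the effects. It was called for 28 of 80 members, 12 higher and 16 lower in H1703, beside 34.9% of all genes tested (13.7% higher and 21.2% lower). The 4 members with the largest lower effect in H1703 were HSPB8 (-5.28 ± 0.30), DNAJC12 (-3.63 ± 0.26), HSPA6 (-3.62 ± 0.59) and HSPA12A (-2.85 ± 0.19). HSPA12B (-1.82 ± 0.28), HSPB1 (-1.27 ± 0.16), DNAJC9 (-1.17 ± 0.19), DNAJC30 (-1.0 ± 0.14) and DNAJC11 (-0.86 ± 0.14) followed. On the other side stood HSPA5, HSP90B1, DNAJA1 (0.92 ± 0.10), DNAJC25 (0.81 ± 0.15), a membrane J protein that rose by 0.92 ± 0.11 in H1703 and was at 0.04 ± 0.11 in H1299, DNAJC10 (0.78 ± 0.16) and DNAJC3 (0.72 ± 0.15). HSP90AA1 (-0.11 ± 0.16), HSPA8 (-0.11 ± 0.13), HSPA1B (0.23 ± 0.12) and DNAJB1 (0.15 ± 0.17) were not called, and HSPA1A (0.35 ± 0.11, adjusted p = 0.0205) was. The HSPA1A call is lost under 3 alternatives (highest adjusted p = 0.0861). Among them are leaving out the second DMSO library (adjusted p = 0.0652) or the first SAHA library (adjusted p = 0.0621) of H1703. Of the called members' effects, 42.9% were higher in H1703, against 31.0% with library totals as the only scaling, 51.6% with RLE scaling and 48.4% with DESeq2. RLE scaling thus gives slightly more higher than lower effects (16 and 15). The median over all genes was -0.09 as reported, -0.19 with library totals alone, -0.02 with RLE scaling and 0.01 with DESeq2.

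**Figure D3:**
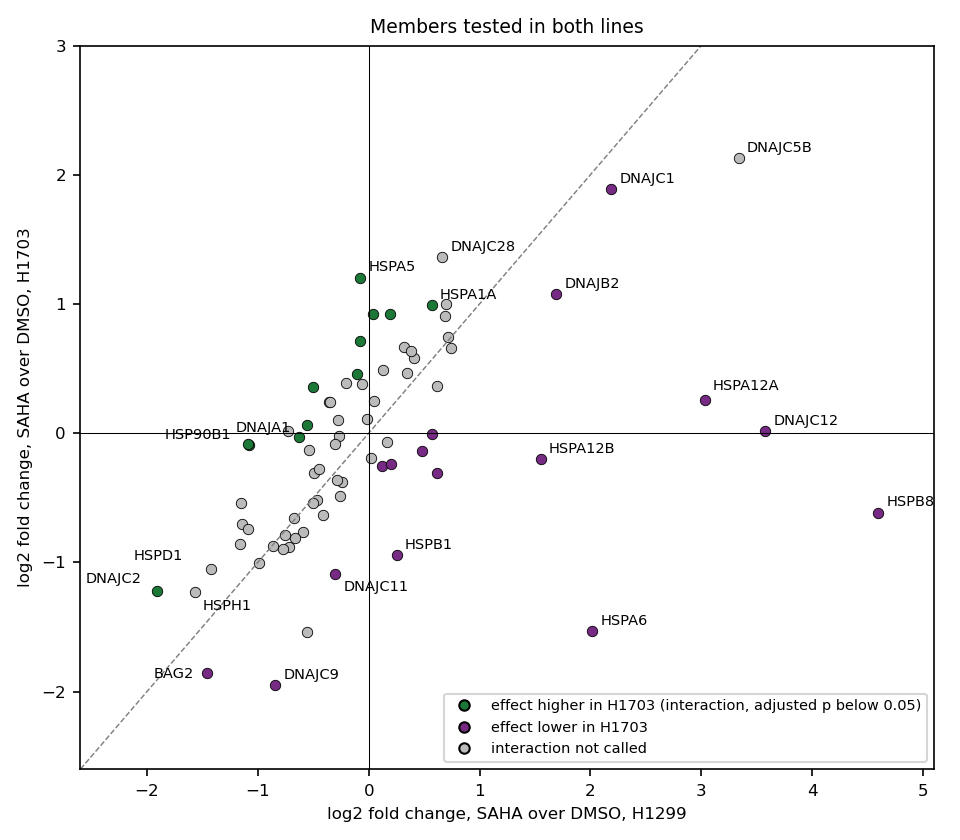
Log2 fold change with SAHA over DMSO in H1299 (horizontal) and H1703 (vertical) for the 76 members tested in both lines; the dashed line marks equal effects. Green points (higher effect in H1703, HSPA5 among them) and purple points (lower effect, with HSPB8, DNAJC12, HSPA6 and HSPA12A farthest out) had a called difference between the lines.

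Under DMSO the lines themselves differed in most members. Of 80 tested, 23 were higher and 33 lower in H1703 than in H1299, 70.0% beside 66.5% of all genes (34.3% higher and 32.2% lower). HSPB8 had 53.4, 47.1 and 47.7 CPM in H1703, against 0.0604, 0.177 and 0.34 CPM in H1299, a log2 difference of 7.93 ± 0.24 (adjusted p = 1.87e-12). DNAJC12 had 32.8, 32.6 and 31.9 CPM in H1703, against 0.121, 0.177 and 0.283 CPM in H1299 (7.32 ± 0.19, adjusted p = 6.55e-13). Both genes are near the detection floor in H1299 and readily measured in H1703, so the SEs of these differences may be too small. HSPA12A (5.34 ± 0.15), HSPA12B (3.33 ± 0.21) and HSPA6 (2.98 ± 0.43) were also far higher in H1703.

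Higher in H1703 by smaller factors were HSPBP1 (1.95 ± 0.11), DNAJC22 (1.95 ± 0.11), HSPB1 (1.29 ± 0.11), DNAJB9 (1.18 ± 0.09), DNAJC1 (1.15 ± 0.09), DNAJC3 (1.14 ± 0.11) and HSPA1L (1.00 ± 0.20), a testis HSP70. HSP90AA1 was lower (-1.19 ± 0.11, adjusted p = 4.40e-07), as were DNAJC19, a mitochondrial import J protein (-1.16 ± 0.12), DNAJB6 (-1.10 ± 0.12), HSPA13 (-1.05 ± 0.09), HSF2 (-1.03 ± 0.11), HSPD1 (-0.76 ± 0.10), BAG5 (-0.72 ± 0.08) and HSF1 (-0.69 ± 0.16). HSPA5 (0.10 ± 0.07) and HSPA9 (0.10 ± 0.06) were not called. Of the called members 41.1% were higher in H1703, against 30.5% with library totals as the only scaling, which moved the median of all genes to -0.17. Under it HSP90B1 (0.25) came to 0.05 (adjusted p = 0.512), DNAJB2 (0.49) to 0.30 (adjusted p = 0.0572) and DNAJC7 (0.33) to 0.14 (adjusted p = 0.223). 3 further calls are lost under several alternatives. BAG1 (0.68) is lost under 8 (highest adjusted p = 0.109), among them leaving out any one of the 6 DMSO libraries (highest adjusted p = 0.103). DNAJB1 (-0.30) is lost under 6, and comes to -0.16 without the first H1703 DMSO library (adjusted p = 0.193). DNAJC9 (-0.33) is lost under 7, and comes to -0.21 without the second H1703 DMSO library (adjusted p = 0.195).

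**Figure D4:**
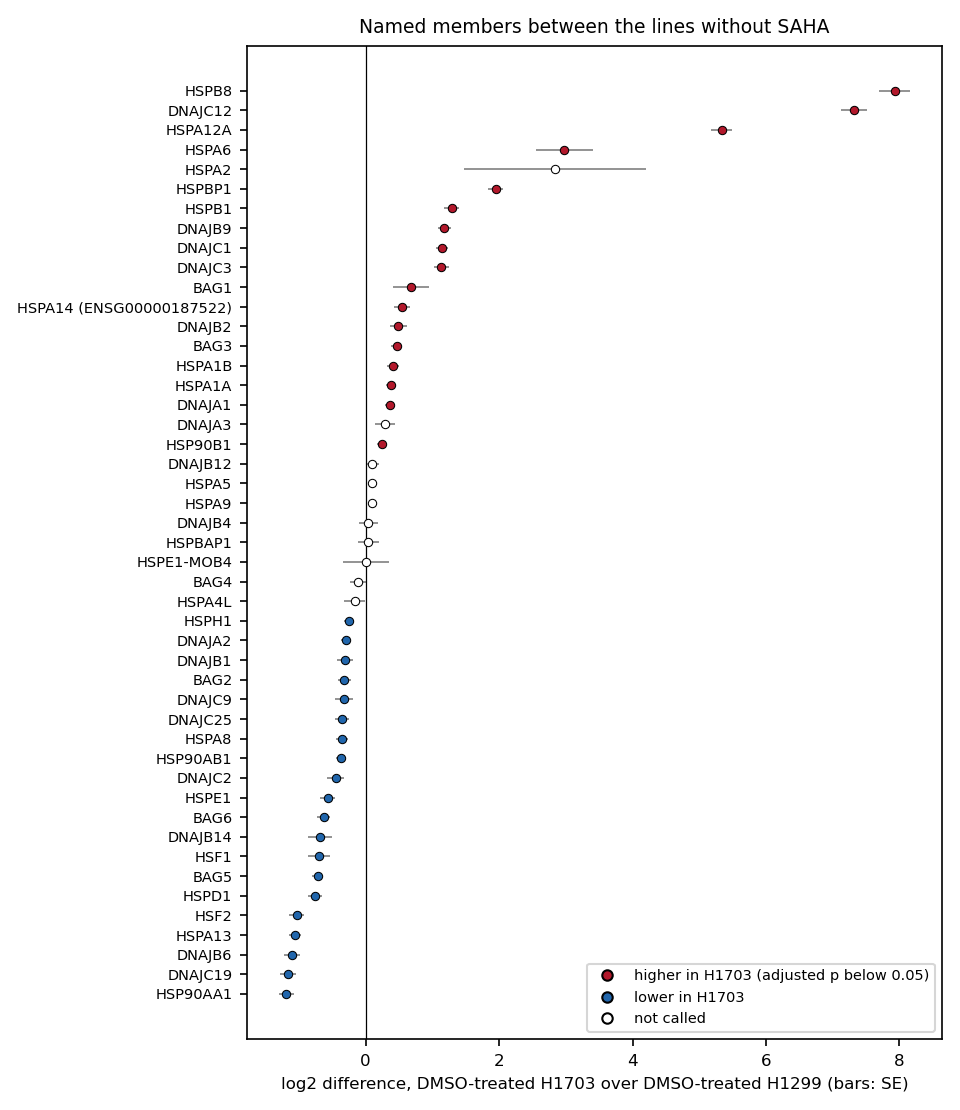
Log2 difference between DMSO-treated H1703 and DMSO-treated H1299 (horizontal axis, bars are SE, 3 libraries per line) for the members named by the rule. HSPB8, DNAJC12 and HSPA12A lie farthest to the right and HSP90AA1 farthest to the left.

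Per length of transcript, as the deposited FPKM values give it, the order of the members changed with SAHA. In H1299 with SAHA the order was HSP90AB1 (538 ± 12), HSP90AA1 (351 ± 72), HSPA5 (247 ± 9.8) and HSPA1A (218 ± 17 FPKM), and with DMSO it was HSP90AB1 (772 ± 20), HSP90AA1 (562 ± 27), HSPA5 (249 ± 6.1) and HSPA8 (169.7 ± 7.1 FPKM; SD, n = 3 each). In H1703 with SAHA HSPA5 led (499 ± 15), followed by HSPA1A (295 ± 21) and HSP90AB1 (285 ± 8.4 FPKM), whose ranges overlap, whereas with DMSO HSP90AB1 led (522 ± 13), followed by HSPA5 (233 ± 8.8), HSPB1 (217 ± 5.4) and HSP90AA1 (216 ± 11 FPKM), the range of HSP90AA1 overlapping those of HSPB1 and HSPA5. The members together took 1.53 ± 0.07% of all counts in H1299 with SAHA and 1.98 ± 0.05% with DMSO, and 1.233 ± 0.008% in H1703 with SAHA and 1.413 ± 0.007% with DMSO.

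**Figure D5:**
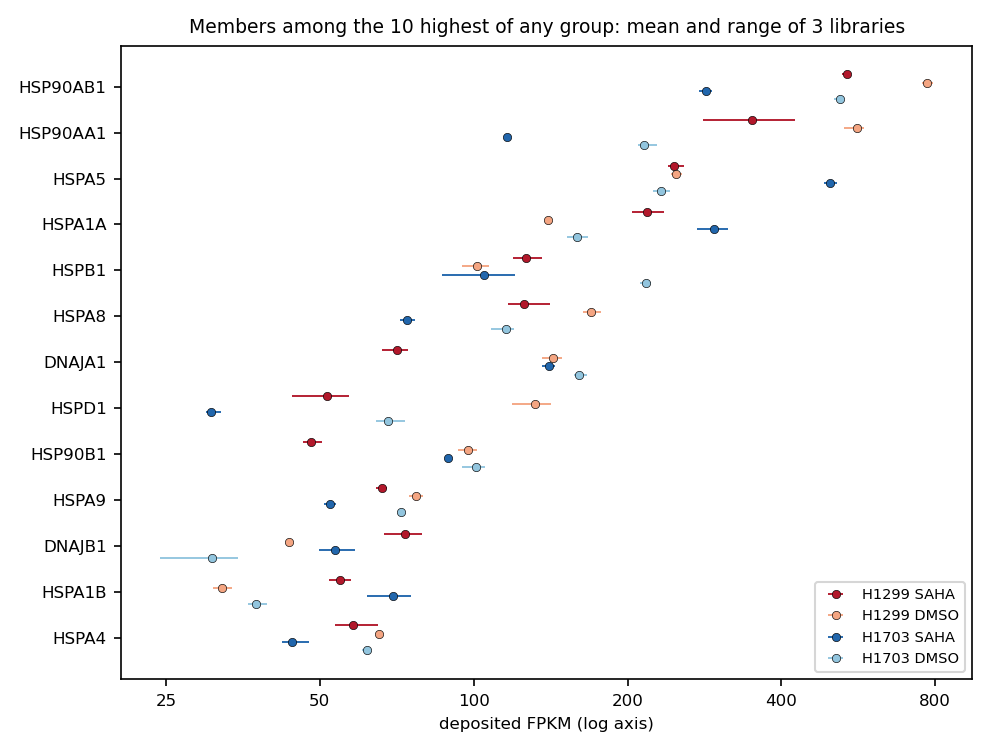
Deposited FPKM (log axis) of the members that rank among the 10 highest in any group; points are means and bars the range of 3 libraries. HSP90AB1 and HSP90AA1 lie lower with SAHA in each line, and HSPA5 is the highest member of H1703 with SAHA.

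The wider chaperone network was read from 53 genes outside the rule. In H1299 8 of 50 tested rose and 32 fell, beside 33.3% and 30.4% of all genes, and in H1703 9 of 51 rose and 25 fell, beside 34.7% and 32.6% of all genes. The lists within it were not tested against other genes. All 8 subunits of TRiC (CCT), the cytosolic chaperonin, were tested; 7 fell in H1299 and 6 in H1703, and none rose. Of 16 tested HSP90 cochaperones, 10 fell and 2 rose in H1299, and 8 fell and 2 rose in H1703. FKBP4, an immunophilin of steroid receptor complexes, fell by 0.94 ± 0.08 in H1299 and 1.07 ± 0.07 in H1703, while STUB1 (CHIP), the ubiquitin ligase that acts on chaperone clients, rose by 0.28 ± 0.10 and 0.64 ± 0.11. Among 9 ER partners, 2 rose and 6 fell in H1299, and 3 rose and 3 fell in H1703. Their effect was higher in H1703 for 6 and lower for 0, beside 13.7% and 21.2% of all genes tested. CALR (calreticulin) fell by 0.55 ± 0.12 in H1299 and rose by 0.75 ± 0.08 in H1703, and HYOU1, the ER HSP110, was at -0.28 ± 0.13 and 0.86 ± 0.10. None of 7 mitochondrial partners rose; 4 fell in H1299 and 5 in H1703. CRYAB, the lens small heat shock protein alpha-B crystallin, was higher in H1703 than in H1299 under DMSO by 6.45 ± 1.21 (adjusted p = 0.0005). With SAHA it was untested in H1299 for low counts and was at 0.17 ± 0.42 in H1703 (not called). The difference of its SAHA effects was -6.08 ± 1.45 (edgeR interaction, adjusted p = 0.00631). Few counts in H1299 underlie the CRYAB comparisons between the lines. Of 51 tested genes of this list, 14 were higher and 19 lower in H1703 under DMSO, beside 34.3% and 32.2% of all genes. The 14 became 8 with library totals as the only scaling.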

How the data were processed

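Polyadenylated RNA of 12 libraries was sequenced. The authors deposited 1 table per line with whole-number counts and FPKM values, per the file headers. Deposited FPKM values equal count over column total and gene length within 1% for 100.0% of 201185 values. The submitters' processing notes name HISAT2 2.1.0, StringTie 1.3.3b, edgeR 3.30.3 and GRCh38; for the counting tool and its use of strand, no source used here gives a statement. Per the labels' protocols, library text contradicts itself on strand, and 36 of 89 members overlap another gene with a mean count of 10 or more, 10 of them on the same strand. The series text states more reads per sample than the counts hold.

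For testing, the counts went into robust quasi-likelihood fits of edgeR 4.0.16 (R 4.3.3) after TMM scaling and filterByExpr at a count of 10 and a total of 15: each line alone, and all 12 libraries for the lines under DMSO and for the interaction. Scripts were tested on simulated data. All replicate pairs differed beyond sampling noise (chi-square divided by its degrees of freedom, 9.96 to 22.3). The labels number the replicates as repeats, and this number was taken as a possible batch. Deviations of same-numbered SAHA and DMSO libraries correlated between -0.04 and 0.03. Alternatives were DESeq2 1.42.0, RLE scaling, library totals alone (chosen after seeing the data), no filter, a replicate block, other libraries in the fit and leaving out each library. The rule for named genes took 29 fixed members and, per role and comparison, the called member with the largest change in each direction at a mean log2 CPM of 1 or more, 47 in all; other genes with values were chosen after their values were seen. Members and lists were chosen with earlier results of these data known.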

Additional observations from a re-analysis of the deposited data

Results flagged for a closer look

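Members are listed here because the SAHA effect differed between the lines (H1703 minus H1299, log2, edgeR interaction over the 12 libraries, adjusted p below 0.05). The effect was higher in H1703 for HSPA5 (1.21), HSP90B1 (0.94), DNAJA1 (0.92), DNAJC25 (0.81), DNAJC10 (0.78), DNAJC3 (0.72), HSPA13 (0.66), DNAJC2 (0.62), BAG6 (0.55), DNAJC21 (0.53), DNAJC24 (0.49) and HSPA1A (0.35). It was lower in H1703 for HSPB8 (-5.28), DNAJC12 (-3.63), HSPA6 (-3.62), HSPA12A (-2.85), HSPA12B (-1.82), HSPB1 (-1.27), DNAJC9 (-1.17), DNAJC30 (-1.0), DNAJC11 (-0.86), HSPB11 (-0.70), DNAJB2 (-0.68), DNAJB4 (-0.65), DNAJC18 (-0.51), BAG2 (-0.48), DNAJA2 (-0.45) and DNAJC1 (-0.37). Of these, HSPA6, HSPB1, HSPB8 and DNAJC30 were called higher with SAHA in H1299 and lower in H1703, and DNAJC10 the other way. The calls of DNAJC1, DNAJC18 and DNAJC24 are lost with a replicate block (adjusted p = 0.0642, 0.0549 and 0.0571). Over all alternatives the DNAJC1 call is lost under 13 (highest adjusted p = 0.0941), the DNAJC24 call under 6 (0.0728) and the DNAJC18 call under 2. Lost too were those of DNAJB4, DNAJC2 and HSPA1A when single libraries are left out (highest adjusted p = 0.0562, 0.0604 and 0.0652). Over all alternatives the highest adjusted p of these genes was 0.0562, 0.0616 and 0.0861. HSPB8, DNAJC12, HSPA6, HSPA12A and HSPA12B had few counts in H1299 with DMSO.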

How the results depend on the processing

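Counts of members called higher and lower stayed within 1.5 times the reported ones under every alternative. With the replicate number as a replicate block, 19 rose and 32 fell in H1299, 22 rose and 32 fell in H1703, 23 were higher and 31 lower in H1703 under DMSO, and the interaction was higher for 11 and lower for 14. Of the member calls named with values, the block ended those of DNAJB6, HSPA4 and HSPB1 in H1299, BAG3 in H1703 and DNAJC1, DNAJC18 and DNAJC24 in the interaction, and it added that of HSF1 in H1299 (adjusted p = 0.0272). Leaving out each library gave 20 to 23 higher and 31 to 33 lower in H1299, 19 to 22 and 28 to 32 in H1703, 21 to 24 and 29 to 32 under DMSO, and 11 to 15 and 14 to 17 in the interaction. Of 255 gene results checked, 169 were called and 141 of these were called the same way under every alternative. Of 86 not called, 29 were called under at least 1 alternative. Among these, HSP90B1 (-0.19, adjusted p = 0.0373) and DNAJA1 (-0.19, adjusted p = 0.0269) were called lower in H1703 with library totals alone, and in H1299 HSPA4L was called lower without the first DMSO library (-0.65, adjusted p = 0.00498), HSPA13 higher without the second SAHA library (0.26, adjusted p = 0.0325) and HSPA2 higher without the first SAHA library (0.93, adjusted p = 0.0443). No called value changed sign. For SAHA against DMSO in H1299, values that changed sign were BAG4 0.01 and DNAJC19 0.06 with library totals alone, DNAJC19 0.04 in one fit over 12 libraries, HSPA2 -0.17 with the replicate block; leaving out libraries gave BAG1 -0.35 to 0.03, BAG3 -0.05 to 0.04, DNAJC19 -0.06 to 0.05, DNAJC25 -0.02 to 0.05, HSF2 -0.05 to 0.13 and HSPA2 -0.46 to 0.93. For SAHA against DMSO in H1703, values that changed sign were BAG6 -0.04 and DNAJC12 -0.09 with library totals alone, DNAJB4 0.01 with RLE scaling, DNAJC12 -0.01 without a filter; leaving out libraries gave BAG5 -0.10 to 0.01, DNAJB4 -0.12 to 0.12, DNAJC12 -0.06 to 0.05 and HSF1 -0.24 to 0.03. For H1703 against H1299 under DMSO, values that changed sign were DNAJB12 -0.09, DNAJB4 -0.15, HSPA4 -0.08, HSPA5 -0.09, HSPA9 -0.09, HSPBAP1 -0.15 and HSPE1-MOB4 -0.19 with library totals alone, DNAJC5B 0.05 with the replicate block, HSPE1-MOB4 -0.03 with DESeq2, HSPE1-MOB4 -0.02 with RLE scaling; leaving out libraries gave DNAJA4 -0.74 to 0.13, DNAJB4 -0.04 to 0.09, DNAJC5B -0.35 to 0.36, HSPBAP1 -0.02 to 0.10 and HSPE1-MOB4 -0.12 to 0.11. For the difference of the SAHA effects, values that changed sign were DNAJB11 0.03 with DESeq2, DNAJB11 0.03 with RLE scaling, DNAJC19 -0.05 and HSPA4L -0.01 with library totals alone; leaving out libraries gave DNAJA3 -0.34 to 0.03, DNAJB11 -0.11 to 0.05, DNAJC19 -0.03 to 0.15, HSF1 -0.01 to 0.31, HSP90AA1 -0.24 to 0.03, HSPA2 -0.38 to 1.00, HSPA4L -0.01 to 0.28 and HSPA8 -0.16 to 0.01. The causes were not tested. Members with few counts, such as HSPA6, DNAJC5B and DNAJA4, have wide errors. So do members whose libraries differ widely within a group, such as HSPA2 and HSPE1-MOB4. The depth limits what can be said of members below the filter.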

Other observations

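9 members entered no test because their counts were too low (DNAJB7, DNAJB8, DNAJB13, HSF5, HSPB2, HSPB2-C11orf52, HSPB3, HSPB7 and HSPB9). HSF5 and DNAJB8 had 0 counts in every library. HSPB7, a heart small heat shock protein, had 0, 13 and 8 counts in H1299 with SAHA and 6, 6 and 11 in H1703 with SAHA, against 0 in the 6 DMSO libraries, which is at least 7.22-fold and at least 7.65-fold higher against a floor of 3 counts over each DMSO group. DNAJC5G, a testis J protein, had 12, 11 and 4 counts in H1299 with SAHA and 3, 5 and 14 in H1703 with SAHA, again against 0 in the DMSO libraries, at least 9.29-fold and at least 7.32-fold higher on the same floor. These bounds cover counting error only. Another 100 rows match the symbols but are not protein-coding. Of these, 94 are pseudogenes and 57 have any count. In H1703 the counts of these 100 rows equalled 0.433 ± 0.032% of the members' counts with SAHA, against 0.700 ± 0.017% with DMSO. In H1299 they equalled 0.876 ± 0.024% with SAHA, against 1.13 ± 0.045% with DMSO (SD, n = 3 each).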
